A study of Oryza sativa Japonica Group with 32 samples.

Results

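The sites described here are the adenosines in 5' untranslated regions (5' UTRs) of rice mRNA at which N6-methyladenosine (m6A) was called by m6A-SAC-seq. They are the rows of the deposited site table that were annotated to a 5' UTR and lay on a nuclear chromosome, whatever their motif. This gave 5148 sites in 3403 host genes, or 2.50% of the 205691 sites listed. Within each tissue, only sites with an m6A fraction of 0.1 or more and a read depth of 20 or more were counted, and 4765 sites in 3182 genes were counted in at least 1 tissue.

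PolyA RNA of the japonica cultivar Nipponbare was profiled in 32 libraries, of which 16 were treated and 16 untreated, with 2 of each kind per tissue. The 8 tissues were the plumule (the emerging shoot) of seeds germinated in light, the plumule of seeds germinated in the dark, seedlings at 8 days, seedlings at 2 weeks, flag leaf, panicle, endosperm and embryo, and the flag leaf, endosperm and embryo were taken 10 days after anthesis. The labels name no mutation or transgene in any group. The site table held 1 fraction per tissue and site, pooled by the authors over replicates, so fractions have no SD, whereas gene expression was given as TPM, a transcript abundance corrected for gene length and library size, in each untreated library.

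m6A-SAC-seq labels the methylated base enzymatically and chemically, so that the copying enzyme misreads it and the site shows as a mismatch in the reads. Spike-in probes of known m6A content turn the mutation rate into a fraction between 0 (unmethylated) and 1 (fully methylated). In plants most m6A is placed by a nuclear writer complex around the MTA and MTB methyltransferases, which prefers a purine before the methylated A and a C after it. The 5' UTR is the stretch that the ribosome scans before it reaches the start codon, and an AUG in this stretch can open a short upstream reading frame that lowers translation of the main protein.

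The only sequence the deposited table gives for a site is its 5-base motif, and the motifs to which the results return are printed here with the measured A in capitals. Purine-A-C motifs have AAC or GAC at their centre, G-A-T motifs have GAT, and all others are called other motifs.
Commonest purine-A-C motif: agAca
Next commonest purine-A-C motif: agAcg
A purine-A-C motif with a high fraction: aaAcc
Purine-A-C motif with the largest gap to the 3' UTR: ggAca
Commonest G-A-T motif, with the A opening an AUG: agAtg
Commonest other motif: agAgc
Another common motif of this class: gaAgc
Other motif with a high fraction: atAgc
Motif at a fraction of 1 in most of its counted values: ccAcc

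The annotation of the sites was checked against their place in the transcript. In 2690 of the 2690 transcripts with listed sites in both the 5' UTR and the coding sequence (CDS), every 5' UTR site lay before every CDS site. The median 5' UTR site was at base 150 of its transcript, with an interquartile range of 62 to 398. Of the genes with a counted 5' UTR site, 73.3% held 1 such site and 85 genes held 5 or more, 80.2% also had a counted CDS site, 82.3% a counted 3' UTR site, and 251 genes had neither.

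Each group of tissue marker genes was most abundant where the labels would place it, with 1 exception in the plumules. The summed TPM of 31 storage protein genes was 225360 to 247483 in endosperm, 18174 to 18870 in embryo and at most 57.6 elsewhere, so the embryo libraries also held storage protein RNA. That of 46 genes with a MADS symbol was highest in panicle at 1942 to 2035, with 921 to 1000 in endosperm and 791 to 812 in flag leaf. That of 34 seed maturation genes was highest in embryo at 48138 to 52832. The 8 leaf photosynthesis genes summed to 3331 to 3633 in light plumules, against 4395 to 4431 in dark plumules, so they were not higher in light. They summed to 53347 to 55744 in seedlings at 8 days, 20339 to 20349 in flag leaf and 16126 to 16785 in panicle.

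The tissues with the fewest counted 5' UTR sites were also those with the most sites of low depth. The number counted was 2012 in light plumules, 1980 in dark plumules, 2228 in seedlings at 8 days, 1887 in seedlings at 2 weeks, 2415 in flag leaf, 2310 in panicle, 1323 in endosperm and 1380 in embryo. Depth fell short at 2510 sites in endosperm and 2177 in embryo, against 1048 to 1556 in the other 6 tissues. Among sites with enough depth the share that counted was lowest in embryo at 46.4%, was 50.2% in endosperm, and was highest in flag leaf at 61.8%. Counted sites had a median depth of 63 (endosperm) to 109 (flag leaf).

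**Figure D1:**
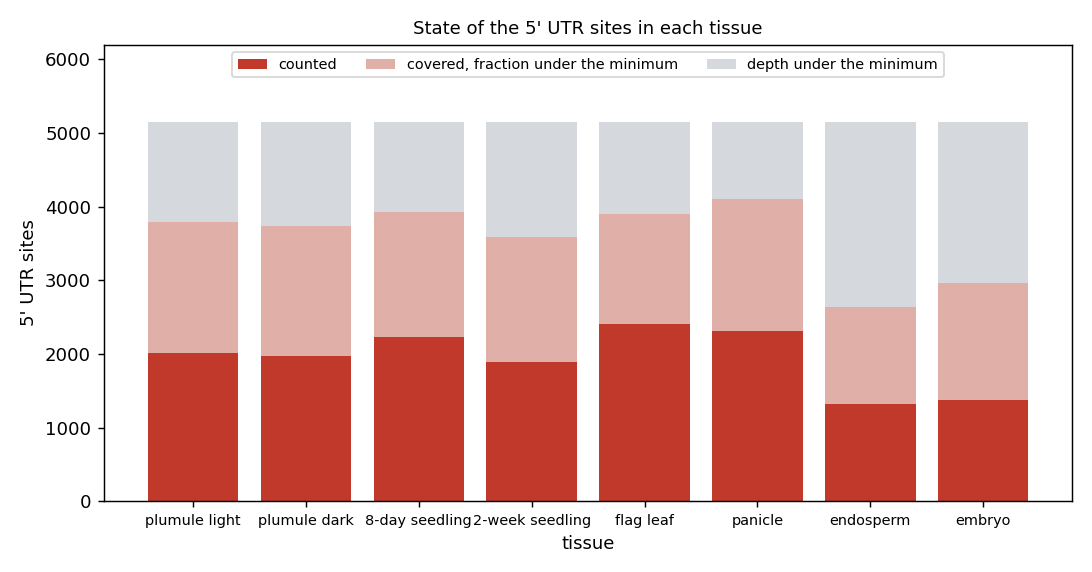
Stacked bars give, for each of the 8 tissues, the number of 5' UTR sites that were counted, that had enough depth but a fraction under 0.1, or that had a depth under 20. Endosperm and embryo have the fewest counted sites (1323 and 1380) and the most sites of low depth (2510 and 2177).

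As a share of all counted sites, the 5' UTR held 2.18% in panicle, 1.65% in endosperm and 1.64% in embryo, against 2.13% in light plumules, 2.13% in dark plumules, 2.27% in seedlings at 8 days, 2.35% in seedlings at 2 weeks and 2.24% in flag leaf. The 2 seed tissues were below all others, while panicle lay inside the vegetative range. The 3 reproductive tissues averaged 1.82 ± 0.31% and the 5 vegetative tissues 2.22 ± 0.09% (SD over tissues), a difference of -0.40 percentage points that missed the threshold (exact permutation over 56 splits, two-sided p = 0.0536, adjusted p = 0.0670 over 10 tests, where the smallest possible p is 0.0179). It passed with a depth minimum of 50 (-0.569 points) and with a fraction minimum of 0.2 (-0.433 points). Their mean fractions, 0.367 ± 0.014 and 0.371 ± 0.006, differed by -0.0043 (exact permutation adjusted p = 0.589).

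Depth at these sites followed host expression. Across the 5148 sites, depth and host TPM had a Spearman correlation of 0.640 (panicle) to 0.781 (flag leaf), given as a description because sites of 1 gene share their expression. Host genes with a counted 5' UTR site had a median of 20.1 TPM in endosperm to 32.0 TPM in seedlings at 2 weeks. Genes counted only through CDS or 3' UTR sites had 12.3 to 22.6 TPM in the same tissues. The hosts of 5' UTR sites sat higher in each of the 8 tissues. A site needs a depth of 20 to count and depth followed TPM, so the counting rule itself favours expressed genes. How much of the difference comes from this rule was not tested.

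5' UTR sites were more methylated than CDS sites and less methylated than 3' UTR sites in every tissue. Mean fractions of counted 5' UTR sites were 0.374 in light plumules, 0.363 in dark plumules, 0.369 in seedlings at 8 days, 0.381 in seedlings at 2 weeks, 0.370 in flag leaf, 0.354 in panicle, 0.367 in endosperm and 0.381 in embryo. Over tissues the 5' UTR averaged 0.370, the CDS 0.282, the 3' UTR 0.437 and introns 0.382. The difference between 5' UTR and CDS was 0.088 ± 0.008 (SD over 8 tissues, 8 of 8 positive, exact sign-flip permutation p = 0.00781, adjusted p = 0.0112). That between 5' UTR and 3' UTR was -0.067 ± 0.011 (8 of 8 negative, exact permutation adjusted p = 0.0112), but 0.0062 with a fraction minimum of 0.2. With no fraction minimum the gap to the CDS was 0.048 and that to the 3' UTR -0.126, and with the authors' detection flag required the gap to the 3' UTR was -0.111. For these tests 0.00781 is the smallest p that 8 tissues allow, and the tissues share most of their sites, so they are not independent samples. The gap to introns was -0.012 ± 0.009 (8 of 8 negative, exact permutation adjusted p = 0.0112). Its size depended on the motifs and the minimum, since it was -0.092 with each motif compared with itself and -0.084 among purine-A-C sites, but turned to 0.015 with a depth minimum of 50 and to 0.019 with a fraction minimum of 0.2.

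The gaps to the CDS and the 3' UTR also depended on which motifs the sites had. With each 5-base motif compared with itself, the 5' UTR exceeded the CDS by only 0.0087 (exact permutation adjusted p = 0.0112), and it fell below the 3' UTR by 0.096 (adjusted p = 0.0112, exact permutation). Among purine-A-C sites alone the 5' UTR was 0.029 above the CDS and 0.207 below the 3' UTR, each in the exact permutation test at an adjusted p of 0.0112. This class pools AAC and GAC centres, which differed. Means of AAC sites were 0.398 (5' UTR), 0.402 (CDS) and 0.479 (3' UTR), so they showed no excess over the CDS. Means of GAC sites were 0.206, 0.191 and 0.442. Per tissue, AAC and GAC sites averaged 196 and 616 (5' UTR), 2255 and 12363 (CDS), and 11015 and 11401 (3' UTR). The split by centre was not tested. Among other motifs the 5' UTR was 0.068 above the CDS and not separable from the 3' UTR, with a difference of 0.0077 (exact permutation adjusted p = 0.342).

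**Figure D2:**
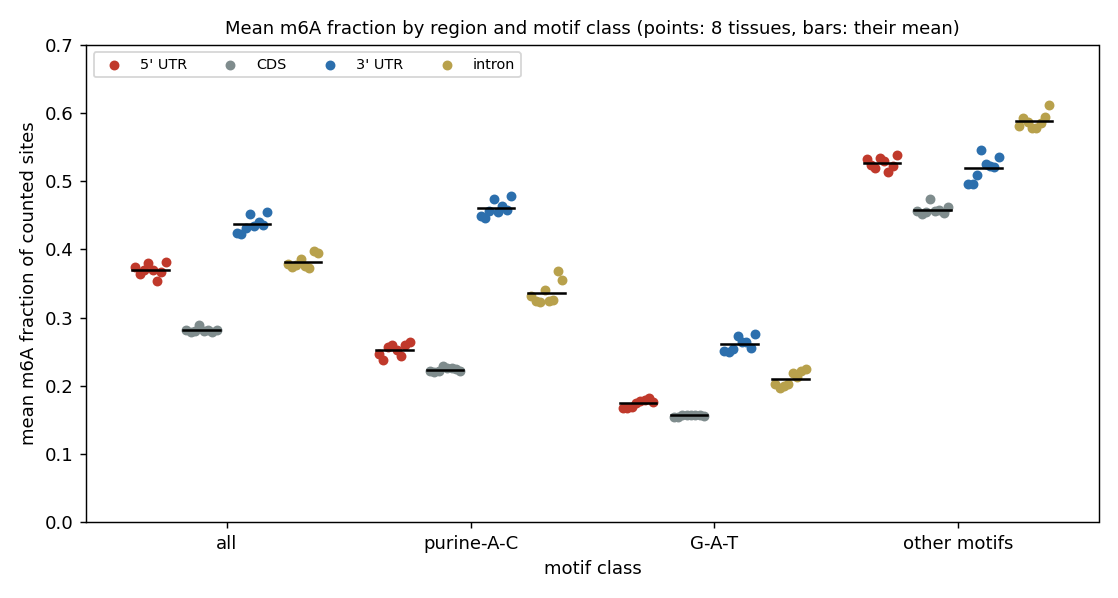
Points give the mean m6A fraction (y axis) of counted sites in each of the 8 tissues, by region and motif class, and bars their mean. For purine-A-C motifs the 5' UTR (0.253) lies near the CDS (0.224) and far below the 3' UTR (0.460), whereas for other motifs the 5' UTR (0.526) lies near the 3' UTR (0.519).

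Purine-A-C motifs are the preferred context of the plant m6A writer. They made up 41.8% of counted 5' UTR sites on average, which was 7.22 ± 0.93 percentage points less than in the CDS (49.0%) and 17.0 ± 1.4 points less than in the 3' UTR (58.8%), with 8 of 8 tissues lower in both and an exact permutation adjusted p of 0.0112 each. G-A-T motifs made up 12.0% of counted sites in the 5' UTR, 20.4% in the CDS and 18.5% in the 3' UTR. Other motifs made up 46.2% in the 5' UTR, against 30.6% in the CDS and 22.7% in the 3' UTR. They were the largest class in the 5' UTR among counted sites only, since of all listed 5' UTR sites 42.8% had other motifs and 43.7% purine-A-C motifs. With a fraction minimum of 0.2 the difference in the share of purine-A-C sites between 5' UTR and 3' UTR was -29.5 points.

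The same contrast held motif by motif. The motif agAca averaged 0.239 in the 5' UTR over 1753 counted values, 0.235 in the CDS and 0.524 in the 3' UTR. For ggAca the means were 0.225 in the 5' UTR, 0.187 in the CDS and 0.559 in the 3' UTR, and for aaAcc they were 0.344, 0.347 and 0.551 in the same order of regions. Of 23 purine-A-C motifs with at least 50 counted values in each region, 18 were lower in the 5' UTR than in the 3' UTR, with a median difference of -0.132.

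Motifs outside the purine-A-C and G-A-T classes differed between regions in both directions, and some had nearly the same level in each. The motif agAgc averaged 0.166 in the 5' UTR, 0.155 in the CDS and 0.167 in the 3' UTR. For gaAgc the means were 0.390 in the 5' UTR, 0.418 in the CDS and 0.401 in the 3' UTR, and atAgc had 0.642, 0.602 and 0.637 in the same order. The motif ccAcc, in contrast, had 0.942 in the 5' UTR, 0.895 in the CDS and 0.810 in the 3' UTR. Over 36 such motifs, 19 were lower in the 5' UTR than in the 3' UTR, with a median difference of -0.0044 and single differences between -0.155 and 0.158. Means over motif values are descriptions, since values of 1 site in several tissues are not independent.

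**Figure D3:**
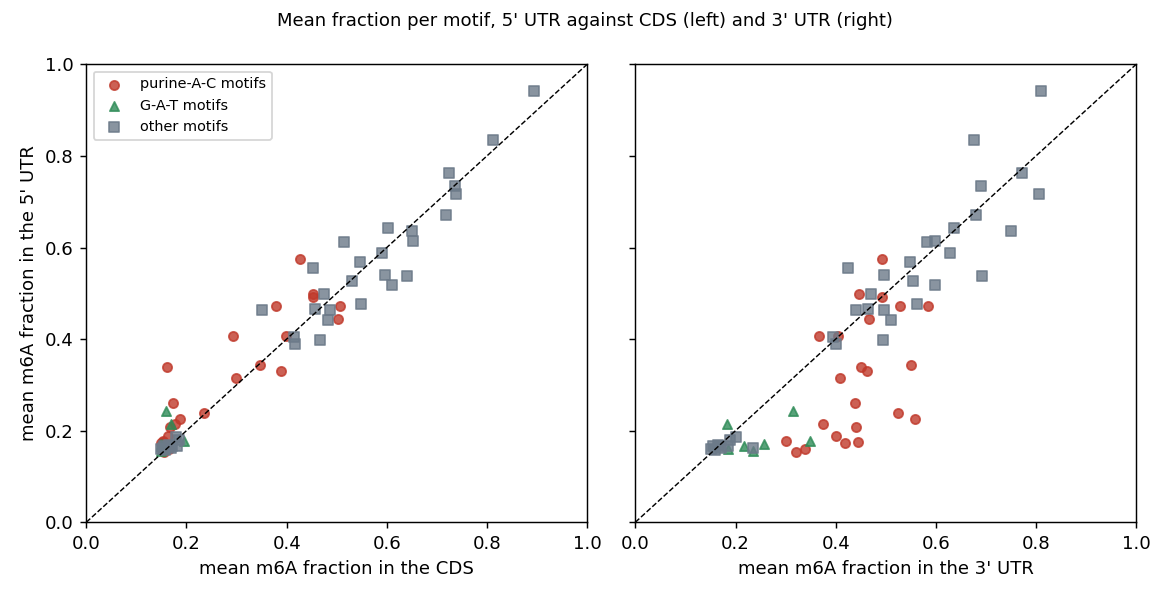
Each point is a 5-base motif with at least 50 counted values in each region, with its mean m6A fraction in the 5' UTR (y axis) against that in the CDS (left) or 3' UTR (right), and the dashed line marks equality. Purine-A-C motifs lie near the line against the CDS (median difference 0.026) and mostly below it against the 3' UTR (median difference -0.132), while other motifs lie around it in both.

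The pattern of purine-A-C sites was also present inside single genes. Between 165 (embryo) and 346 (flag leaf) genes had counted purine-A-C sites in all 3 regions. Averaged per gene, these sites had a mean fraction of 0.223 in the 5' UTR, 0.214 in the CDS and 0.457 in the 3' UTR over the 8 tissues. In 80.9% (endosperm) to 86.0% (seedlings at 2 weeks) of these genes the 5' UTR was below the 3' UTR, whereas it was above the CDS in 44.2% (dark plumules) to 55.2% (embryo).

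Fractions of exactly 1 were frequent in the 5' UTR. They made up 12.4% of counted 5' UTR sites averaged over tissues, against 6.15% in the CDS and 10.4% in the 3' UTR. In the 5' UTR they belonged mainly to other motifs, where 24.97% of counted values were exactly 1, against 1.91% for purine-A-C motifs and 0% for G-A-T motifs. The motif ccAcc accounted for 125 listed 5' UTR sites, or 2.43% of them, against 0.263% of CDS sites and 0.0213% of 3' UTR sites. Of its counted 5' UTR values, 85.4% were exactly 1. Of the 18 ccAcc sites in the 5' UTR read 50 times or more in each tissue, 14 took both 0 and 1. Whether a fraction of exactly 1 means full methylation at such motifs was not tested. Without fractions of exactly 1, the 5' UTR exceeded the CDS by 0.046.

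The 6 deeply read sites with the highest mean fraction were of this kind, and none had a purine-A-C motif. The sites of OsNAPL6 (chromosome 2, position 22155972, gcAgt), cdc2Os-1, a cyclin-dependent kinase (chromosome 3, position 997856, gcAtt), OsMB11 (chromosome 7, position 27545534, ccAcc), OsTFIIF2-2, a subunit of a general transcription factor (chromosome 1, position 32601684, ccAcg) and OsDjC16 (chromosome 2, position 5336314, gcAgg) were at 1 in each of the 8 tissues. The site of OsNAPL6 had a depth of 337 to 1593. The sixth, in MRG702, a reader of histone methylation (chromosome 11, position 20106733, gcAga), was at 1 in 5 tissues and at 0.861 to 0.948 in the others. All coordinates are those of IRGSP-1.0.

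A range of 1, the widest possible, was shared by 83 of the 837 sites read 50 times or more in each tissue, of which 80 had other motifs and 3 purine-A-C motifs. The 6 named here are the most deeply read of those with a gene symbol. In RBCS, a small subunit of the carbon-fixing enzyme Rubisco (chromosome 12, position 10081427, tcAag), the fraction was 0.667 in light plumules, 0.448 in dark plumules, 0.130 in seedlings at 8 days, 0.245 in seedlings at 2 weeks, 0.117 in flag leaf, 1 in panicle, 0 in endosperm and 0 in embryo. RBCS averaged 11167 TPM in seedlings at 8 days and 20.8 TPM in embryo (n = 2 each), and the depth at its site was 110 to 19198. In OsPIP2a, an aquaporin (chromosome 7, position 15406470, ccAcc), the fraction was 1 in both light and dark plumules and 0 in panicle at a depth of 1015 or more in each tissue. OsALDH11A3, OsI57, OsRab1C1 and ADC1, an arginine decarboxylase, completed the set. At the same depth, 19.0% of 422 other-motif sites took both 0 and 1, against 1.00% of 300 purine-A-C sites and 0 of 115 G-A-T sites.

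Among purine-A-C sites, in a ranking added after these values had been seen, the sites counted in all 8 tissues with the highest means had intermediate levels. TRXH3, a thioredoxin (chromosome 9, position 14051155, aaAct), had 0.191 in light plumules, 0.559 in dark plumules, 0.318 in seedlings at 8 days, 0.605 in seedlings at 2 weeks, 0.428 in flag leaf, 0.218 in panicle, 0.480 in endosperm and 0.584 in embryo. OsXAT3 (chromosome 3, position 20518495, caAcc) had 0.416, 0.375, 0.466, 0.313, 0.173, 0.495, 0.192 and 0.408 in the same order of tissues. OsbZIP28, a bZIP transcription factor gene (chromosome 3, position 11480302, gaAcc), stood highest in dark plumules at 0.929 and lowest in panicle at 0.117. OsMT2d, a metallothionein (chromosome 1, position 2668829, aaAct), had 0.302 to 0.670, but with at most 6.37 TPM in any library its depth of 141 to 1163 was high for its expression. The widest-ranging purine-A-C sites did reach both ends. OsUXS2 (chromosome 1, position 11910908, aaAcc) was at 1 in endosperm at a depth of 58 and at 0 in dark plumules and embryo, and a site in each of OsCCT36 and OsCCT39 was at 1 in light plumules and at 0 in seedlings at 8 days.

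**Figure D4:**
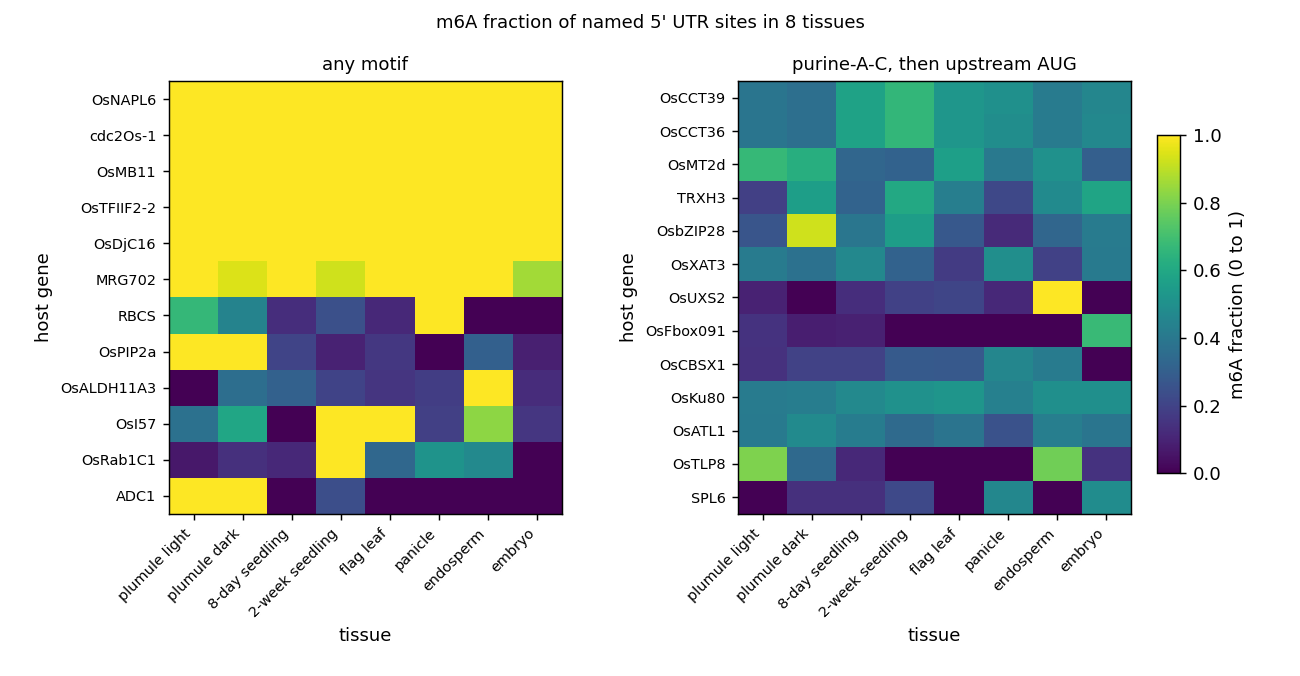
Colour gives the m6A fraction (0 to 1) of named 5' UTR sites in 8 tissues, with the highest and widest-ranging sites of any motif on the left, and purine-A-C sites followed by upstream AUG sites on the right. On the left, 5 sites are at 1 in each tissue, MRG702 does not go below 0.861, and the 6 widest-ranging sites reach both 0 and 1 with intermediate values between, while on the right OsKu80 stays between 0.414 and 0.520.

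The genes with the most counted 5' UTR sites were OsCCT39 (13 sites, chromosome 12) and OsCCT36 (11 sites, chromosome 11), followed by CDKG, a cyclin-dependent kinase (10 sites, chromosome 4), and OsSCS1 (10 sites, chromosome 3). In 5 pairs of sites across OsCCT36 and OsCCT39 with the same motif, both the depth and the fraction were identical in 3 to 6 tissues, and no other 5' UTR sites were identical in as many (depth of at least 20, fractions of 0 and 1 left out). Their values are therefore uncertain and not independent, and their TPM was at most 0.756 in any library. In CDKG and OsSCS1, 6 of the 10 counted sites had purine-A-C motifs, and site means were 0.067 to 0.374 in CDKG and 0.043 to 0.377 in OsSCS1.

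Most 5' UTR sites were counted in few tissues. Of the 4765 counted sites, 1316 (27.6%) were counted in 1 tissue and 276 (5.79%) in all 8, with a median of 3 tissues. The CDS had a median of 3 tissues as well, with 7.22% in all 8, and the 3' UTR a median of 5, with 23.5%. Depth set part of this count. For the sites counted in 1 tissue, depth was under 20 in 50.7% of the values of the other tissues and the fraction was under 0.1 in the remaining 49.3%. Among sites with enough depth in every tissue, 14.4% of 1915 in the 5' UTR, 13.2% in the CDS and 44.3% in the 3' UTR were counted in all 8. Flag leaf (343) and panicle (294) had the most 5' UTR sites counted nowhere else, against 95 to 161 in the other tissues.

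Position within the 5' UTR was compared across the first 100 bases of the transcript and the bases after them. Sites in the first 100 bases averaged 0.389 over tissues and later sites 0.358, a difference of 0.031 ± 0.008 (8 of 8 tissues positive, exact permutation adjusted p = 0.0112). Without fractions of exactly 1 it was 0.0062 and did not pass, and the direction turned once motif was held fixed. Purine-A-C sites in the first 100 bases averaged 0.234 and later ones 0.263, a difference of -0.028 (exact permutation adjusted p = 0.0112), and the motif-matched difference was -0.014 (exact permutation adjusted p = 0.0335). Other motifs made up 50.1% of sites in the first 100 bases and 38.4% of later sites. Along the 5' UTR, purine-A-C sites had their lowest mean at bases 101 to 200 (0.212 over 374 sites) and their highest beyond base 1000 (0.313 over 263 sites).

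**Figure D5:**
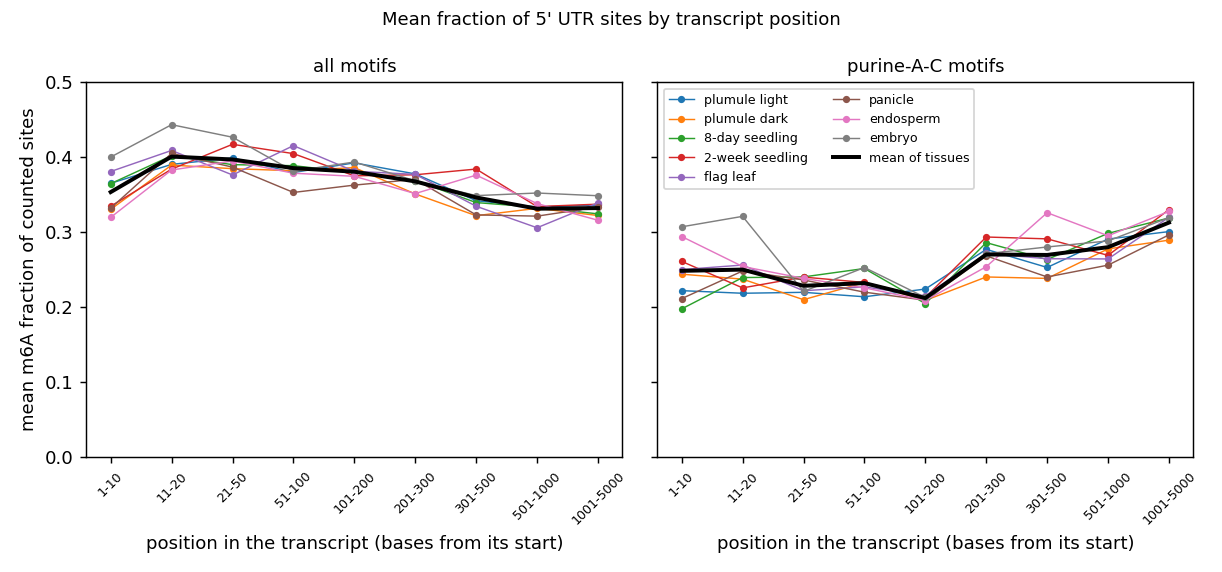
Lines give the mean m6A fraction (y axis) of counted 5' UTR sites by position in the transcript (x axis, bases from its start) for each tissue, and the black line their mean. Over all motifs the mean is highest at bases 11 to 20 (0.401) and 0.332 beyond base 1000, whereas for purine-A-C motifs it is 0.228 at bases 21 to 50 and 0.313 beyond base 1000.

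An upstream AUG is an AUG in the 5' UTR at which a scanning ribosome can start before the main reading frame. In 236 sites (4.58%) in 206 genes the measured A opened an AUG, and 216 of these had the G-A-T motif NGATG. The remaining 20 had other motifs and averaged 0.627 over tissues, with 3 to 9 of them counted per tissue. Sites with NGATG averaged 0.177 over tissues and the other G-A-T sites, whose last base is not G, 0.173. The difference was 0.004 ± 0.012, positive in 4 of 8 tissues, and did not pass (exact permutation adjusted p = 0.434), with the largest values in endosperm (0.027) and embryo (0.016). With no fraction minimum it was 0.013 and passed (exact permutation adjusted p = 0.00977). Within the 5' UTR, purine-A-C sites exceeded G-A-T sites by 0.078 ± 0.008 in 8 of 8 tissues (exact permutation adjusted p = 0.0112).

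Among upstream AUG sites with a gene symbol that met the depth minimum of 20 set for this ranking, OsKu80 and OsATL1 had the highest means. The ranking left out a site of OsARF3 (gcAtg), which averaged 0.620 and was counted in 4 tissues. OsKu80, a subunit of the Ku complex that binds DNA ends in repair (chromosome 3, position 36111940, ggAtg, transcript base 668), had 0.414 in light plumules, 0.425 in dark plumules, 0.469 in seedlings at 8 days, 0.508 in seedlings at 2 weeks, 0.520 in flag leaf, 0.436 in panicle, 0.497 in endosperm and 0.497 in embryo, at a depth of 72 to 358. This range of 0.105 compares with a median range of 0.085 over the 115 G-A-T sites read 50 times or more in each tissue. OsKu80 was expressed at 8.50 to 28.8 TPM in the 16 libraries. OsATL1 (chromosome 6, position 26314725, tgAtg) lay between 0.250 in panicle and 0.480 in dark plumules. The next sites, in OsTLP8 (chromosome 2, position 29109090, taAtg) and SPL6, a squamosa promoter-binding-like factor (chromosome 3, position 35015448, gtAtg), were each at 0 in 3 tissues and reached 0.808 and 0.485.

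Light and dark plumules were compared because the study asked how light affects rice m6A. It reported a pervasive rise in light, with many more raised than lowered sites over all regions. Its rule for calling a changed site is not given, so the counts below are not set against its own. At the 3632 5' UTR sites with a depth of 20 or more under both conditions, light plumules averaged 0.216 and dark plumules 0.210. Of the 2522 counted in either, 607 (24.1%) were higher by 0.1 or more in light and 580 (23.0%) were lower by as much, against 22% and 20.7% of all nuclear sites. Purine-A-C sites divided into 220 higher and 195 lower of 1035, and G-A-T sites into 31 higher and 50 lower of 318. Shares by motif class over all nuclear sites were not computed. Among the 3337 sites chosen by being counted in any of the other 6 tissues, 533 were higher and 506 lower. All nuclear sites chosen in the same way gave 22591 higher and 21320 lower of 140787. With 1 pooled value per condition these counts have no replicate check.

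The largest differences between light and dark lay between 0 and 1 at other motifs, and the most deeply read of these ties are named. OsDHAR2, a dehydroascorbate reductase (chromosome 6, position 6895581), REM4.1 and OsCCR4a (chromosome 10, position 14362276) had 1 in light and 0 in dark, and OsVPS22, OsGSTU16 and a second site of OsCCR4a (position 14362266) had 0 in light and 1 in dark. The pair of OsCCR4a sites thus differed in opposite directions within the same 5' UTR. Of the purine-A-C sites, OsbZIP28 had the largest negative difference, with 0.265 in light and 0.929 in dark at depths of 121 and 125. The largest positive differences were 0.556 at a site in each of OsCCT36 and OsCCT39, whose values are uncertain as described above. BAD1 came next, with 1 in light and 0.654 in dark at a depth of 94 in each. The OsbZIP28 gene itself had 22.0 and 25.3 TPM in light plumules, against 24.6 and 25.8 TPM in dark plumules, and the groups overlapped.

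Expression of the host genes was tested between the same plumules with limma on log2(TPM + 1). None of the 3157 expressed hosts with a counted 5' UTR site was called (219 at an unadjusted p under 0.05), against a background of 3 of 28562 genes (0.0105%, and 1863 at an unadjusted p under 0.05). Endosperm and embryo differed in most genes (69% of all genes tested). Of the hosts, 892 (28.3%) were higher in endosperm and 1639 (51.9%) lower, where the backgrounds over all genes were 24.4% and 44.6% (limma, Benjamini-Hochberg adjusted p under 0.05). The median log2 difference was -0.32 for hosts and -0.20 for all genes. In bulk RNA of this kind, fewer cells of a type and less RNA per cell cannot be told apart.

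Hosts differed in direction. RBCS was higher in endosperm by 2.46 ± 0.07 (log2, SE) with 125 and 112 TPM in endosperm against 18.9 and 22.7 TPM in embryo, and its site was listed at 0 in both (limma adjusted p = 3.9e-12). OsbZIP14, a bZIP transcription factor gene, was higher by 1.22 ± 0.11 (limma adjusted p = 3.9e-07). SAMDC, a S-adenosylmethionine decarboxylase of polyamine synthesis, was lower by 1.25 ± 0.11 with 210 and 180 TPM in endosperm against 459 and 471 TPM in embryo (limma adjusted p = 1.7e-07). OsKu80 was lower as well, at 9.01 and 8.50 TPM in endosperm against 15.7 and 15.8 TPM in embryo (limma adjusted p = 2.1e-06), while its site had 0.497 in both.

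A counted 5' UTR site was present in 11.1% of the 28562 expressed genes. Among genes of photoreception and light signalling, 4 of 10 had one: OsCRY1a and OsCRY1b (blue light receptors) and the phytochrome-interacting-like factors PIL13 and OsPIL11. All 10 of these genes had a counted 3' UTR site, against 47.7% of expressed genes, so they carried counted sites often in that region too. OsCRY1a had a site at position 21976854 of chromosome 2 (agAgc) with 0.183 in light plumules and 0.0554 in dark plumules at depths of 34 and 37, and it was under 0.1 in the other tissues read there. A second OsCRY1a site (position 21976850, cgAga) was counted in 2 tissues and reached 0.361. The deepest OsCRY1b site (chromosome 4, position 22550132, cgAgc) reached 0.102 in panicle only. A nearby OsCRY1b site (position 22550149, atAgt) was at 1 in light plumules, 0 in dark plumules at a depth of 45, and 1 in the other 4 tissues with enough depth.

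Among transcription factor families, sites were found in 10 of 60 expressed bZIP genes, 4 of 25 auxin response factors (OsARF3, OsARF10, OsARF17 and OsARF24), 1 of 22 heat shock factors (HSFA2E) and 8 of 89 WRKY genes. OsbZIP14 had a site (chromosome 2, position 1697069, agAcg) with 0.104 to 0.154 in the 8 tissues at depths of 76 to 1547. A second OsbZIP14 site 10 bases upstream in the transcript (agAca) had 0.072 to 0.274 and was counted in 5 tissues. WRKY71 (chromosome 2, position 4542999, taAct) had 0.201 in seedlings at 2 weeks and 0 in embryo. HSFA2E had a G-A-T site (chromosome 3, position 33106142, agAtg) that opened an upstream AUG and stayed between 0.076 and 0.125.

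SAMDC and SAMDC1 were the 2 of 3 expressed S-adenosylmethionine decarboxylase genes with a site. The SAMDC1 site was counted in seedlings at 2 weeks only, at 1 with a depth of 22, and had 0.082 in embryo at a depth of 936. The SAMDC site (chromosome 4, position 24916550, tgAcc) was read 801 to 5211 times and had 0.073 to 0.101, so it was counted in flag leaf only and sat just under 0.1 elsewhere. Among 11 light-harvesting and Rubisco genes, CAB2R, Lhcb1.1 and RBCS had sites. CAB2R, a chlorophyll-binding protein (chromosome 1, position 23607431, agAca), was read up to 19789 times and had 0.082 to 0.127 outside embryo. No list was tested against the 11.1% of all expressed genes.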

How the data were processed

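PolyA RNA of 8 tissues was profiled in 32 libraries, grouped by the tissue and treatment in their titles. Per the labels and the study's methods, the authors called sites on the IRGSP-1.0 genome and calibrated mutation rates with spike-in probes. The methods name the published m6A-SACseq pipeline for site detection, and the tool behind the TPM values was not given in the sources used here. Deposited m6A fractions (0 to 1) came from the authors as 1 pooled value per tissue and site, with read depth as a whole-number count and a detection flag, so the spread between replicates of a fraction is unknown. How replicates were combined, and whether a depth sums over them, is not stated, and the depth minimum applies to the value as given. The flag of seedlings at 2 weeks has a misspelled header and was assigned because the other 7 flags named the other tissues. Since calibration breaks the tie to read numbers no binomial interval was computed. No fractions of untreated libraries were used here. The authors deposited TPM per gene for 16 untreated libraries, and 0 per-sample columns were left unmapped. The labels call the 2 libraries of a kind biological replicates.

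Sites on nuclear sequences were counted from a fraction of 0.1 and a depth of 20 upward. Regions, motif classes and positions were compared on per-tissue means with exact sign-flip permutation tests over 8 tissues, and tissue groups with all 56 splits, two-sided, with Benjamini-Hochberg adjustment over 10 tests. Expression was tested with limma 3.58.1 (R 4.3.3; trend and robust moderated variances) on log2(TPM + 1) in 1 fit over 16 libraries with tissue as the factor, for genes that reached a TPM of 1 in 2 or more libraries. On this scale the change of weakly expressed genes is understated. Python 3.11.15, numpy 2.4.6, pandas 2.3.3 and matplotlib 3.10.9 were used. On simulated tissues, 5 of 5 site statistics returned the built-in differences.

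Named sites had a gene symbol and were the 6 with the highest mean among those counted in 8 tissues and the 6 with the widest range (depth of at least 50 in each tissue), the 4 genes with most counted sites, the 4 upstream AUG sites with the highest mean at a depth of at least 20, the 3 largest rises and 3 largest falls in light (depth of 50 or more under both conditions), the 2 deepest counted sites per gene list, and a site of OsCRY1a that the study lists. Rankings among purine-A-C sites alone, comparisons within motif groups or within genes counted in both regions, the search for identical sites, and other list genes that are named, were chosen after the values were seen. A list of m6A writers, erasers and readers matched 0 symbols. The members, lists and rules were chosen with earlier results of these data known. Alternatives changed the depth and fraction minimum, the flag, motifs, fractions of exactly 1, the weighting by gene, the position boundary, the pseudocount, the low-value filter and single tissues or libraries.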

Additional observations from a re-analysis of the deposited data

How the results depend on the processing

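Of 173 alternatives over 12 results, 158 kept the direction and the side of the threshold, and 6 results did so under all of theirs: both differences in the share of purine-A-C sites, the 5' UTR minus CDS fraction, purine-A-C minus G-A-T, and both counts of host genes. The 5' UTR minus 3' UTR fraction reversed with a fraction minimum of 0.2 (0.00615) and for other motifs (0.00771). The 5' UTR minus intron fraction reversed with a depth minimum of 50 (0.0146) and a fraction minimum of 0.2 (0.0192), and within genes it no longer passed (-0.0145). The first 100 bases minus later positions no longer passed with the flag required (0.00695) or without fractions of exactly 1 (0.00622), and reversed for purine-A-C motifs (-0.0285) and with motifs matched (-0.0139). The upstream AUG difference passed with no fraction minimum (0.0129). The reproductive minus vegetative share passed with a depth minimum of 50 (-0.569) and a fraction minimum of 0.2 (-0.433). The reproductive minus vegetative mean fraction reversed with a depth minimum of 10 (0.00112) and with the flag required (0.00485), and ran from -0.0112 to 0.00255 when a tissue was left out, with the positive value without panicle. Some values kept their call but moved by over 1.5 times. The 5' UTR minus CDS fraction (0.0881) fell to 0.00868 with motifs matched, 0.029 for purine-A-C motifs and 0.0178 for G-A-T motifs. It was 0.0476 with no fraction minimum and 0.0461 without fractions of exactly 1. The 5' UTR minus 3' UTR fraction widened to -0.207 for purine-A-C motifs. With no fraction minimum purine-A-C minus G-A-T was 0.044, the first 100 bases minus later positions 0.0202 and the gap to introns -0.0277. With the flag required the gap to introns was -0.054, and the difference in the share of purine-A-C sites to the CDS was -4.52 points (-4.64 without fractions of exactly 1). The cause was not tested in any of these.

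The 5' UTR minus CDS fraction was 0.0865 to 0.0904 when a tissue was left out. Host genes called between endosperm and embryo numbered 2323 to 2383 when a library was left out, where the lone library of its tissue is assumed to vary like the other tissues. With the replicate number as a block, 0 host genes were called between light and dark plumules and 2566 between endosperm and embryo. The deviations of same-numbered libraries correlated at 0.171 between light and dark plumules and -0.00121 between endosperm and embryo. Whether libraries of the same number were handled together was not tested. Depth limits the site counts of endosperm and embryo most.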

Other observations

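The A of the annotated start codon was also measured. It was listed in 229 genes, and in 206 of these the motif was NGATG, the same as at most upstream AUGs. Upstream NGATG sites in the 5' UTR averaged 0.177 over the 8 tissues (lowest 0.166, highest 0.2001), while start-codon NGATG sites averaged 0.147 (lowest 0.137, highest 0.151). The ranges over tissues did not overlap for this motif. Over all motifs they did, with 0.219 at upstream AUGs (0.1996 to 0.246) and 0.232 at annotated start codons (0.206 to 0.247). The NGATG difference was noticed in the data and was not tested.

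Among 5' UTR sites read 50 times or more in each of the 8 tissues, pairs of tissues correlated at a median Pearson r of 0.655 over 300 purine-A-C sites (0.558 to 0.787 over 28 pairs) and 0.607 over 837 sites of any motif. For purine-A-C sites flag leaf and panicle were the closest pair (0.787), and over any motif light and dark plumules were (0.764). With no fraction minimum, embryo held the lowest of the 8 values at 74 of these 300 sites and flag leaf at 16. Their mean fractions were 0.124 in embryo and 0.146 in flag leaf. Endosperm held the lowest value at 46 of the sites and the highest at 54. Among counted purine-A-C sites of the 5' UTR the order was the other way. Embryo had the highest mean of the 8 tissues there at 0.265, and flag leaf had 0.252.

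Other motifs with AGC from the measured A onward made up 14.8% of the listed 5' UTR sites, 9.49% of CDS sites and 3.11% of 3' UTR sites, with mean fractions of 0.476, 0.428 and 0.450 in the same order. The detection flag was set at 52.2% of counted 5' UTR sites averaged over tissues, 59.0% of CDS sites and 66.4% of 3' UTR sites.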
